A study of Mus musculus with 18 samples.

Results

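The genes examined were 10 cell-surface markers that are used to stage developing mouse B cells: Kit, Il2ra, Spn, Cd2, Cd22, Cd72, Ms4a1, Cd24a, Bst1 and Cd93. They were chosen by name, as every probe of the expression array whose gene symbol in the platform annotation was one of the 10. Of the 10 genes, 8 had a probe, which gave 10 of the 25697 probes on the array, 3 of them for Cd22. Kit and Cd72 had no probe under those symbols in the platform annotation and were not analysed here. Spn had a probe that was detected on 1 of 18 arrays and was not tested, so 7 genes were tested among the 8446 genes that passed the detection filter.

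Pro-B cells carry the stem cell factor receptor KIT and the sialoglycoprotein CD43, the product of Spn. Small pre-B cells have lost both, have gained CD25 (Il2ra) and CD2, and still carry CD24, CD93 and the ectoenzyme CD157 (Bst1). CD22, a lectin that dampens antigen receptor signals, increases as the cells mature, and CD20, the product of Ms4a1, is most abundant on mature B cells. Interleukin-7 (IL-7) drives the proliferation of pro-B and large pre-B cells, and its removal in culture allows the light chain genes to rearrange. The RAG recombinase cuts DNA in that step, Artemis (the product of Dclre1c, written Art in the labels) opens the hairpin ends so that they can be joined, and Nfkb2 encodes the p100 and p52 proteins of the NF-kappa B family.

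RNA was measured on 18 single-colour Illumina MouseRef-8 arrays, 3 in each of 6 groups. The cells were primary pre-B cultures grown from the bone marrow of mice 4 to 6 weeks old, of C57BL/6 and BALB/c mixed background, kept in 5 ng/mL IL-7 for 7 to 10 days. All cultures carried an immunoglobulin heavy chain transgene (μIgH) and a Bcl2 transgene, and the sources used here do not name the promoters that drive them. On top of these transgenes the cultures were Rag-/- (Rag1-/- in the study's design text), Art-/-, or Art-/- combined with Nfkb2-/- (Art-/-:Nfkb2-/- below), with 3 independent cultures of each. These are the names of the labels, which the arrays do not check. Each culture gave an array in IL-7 (day 0) and an array after 2 days without it. The study's question, by its title, was how breaks made by RAG act on signals of the pre-B cell receptor: Rag-/- cells cannot make such breaks, Art-/- cells make them and cannot process the hairpin ends, and the loss of Nfkb2 was added to the latter. The arrays measured RNA of whole cultures, so surface protein was not measured, and fewer cells of a type and less RNA per cell cannot be told apart.

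Levels are given as log2 signal after background correction and quantile normalization, and a probe was called detected on an array when its detection p-value was below 0.01. Between 10091 and 10894 probes were detected per array, and arrays of one group correlated at 0.976 to 0.993 over the 11356 probes that passed the detection filter. The 7 pre-B markers with a probe among 9 listed (Blnk, Cd79a, Cd79b, Ebf1, Pax5, Rag1 and Vpreb1) all passed the filter. Of the markers of other cells with a probe, 1 of 8 mast cell (Hdc), 2 of 8 T cell, 3 of 7 natural killer cell, 3 of 7 dendritic cell, 3 of 6 plasma cell, 2 of 7 stromal, 1 of 5 early progenitor (Meis1), 0 of 5 erythroid and 8 of 10 myeloid genes passed. Of the targeted genes, Rag1 lay at 11.37 to 12.88 on the Rag-/- arrays and at 9.22 to 11.56 on the others, and Nfkb2 was detected on all 18 arrays, at 7.78 to 9.32 on the Art-/-:Nfkb2-/- ones. The sources used here do not say whether these probes fall inside the deleted sequence, so neither level checks a label, and no Dclre1c probe was used. Eif2s3y, a Y-linked gene, was detected on both arrays of 3 of 3 Rag-/-, 0 of 3 Art-/- and 1 of 3 Art-/-:Nfkb2-/- cultures (replicate 3), at 10.46 to 11.26 against 4.54 to 4.71 on the other arrays. Sex and genotype therefore cannot be told apart between Rag-/- and Art-/- cultures, and results on Art-/-:Nfkb2-/- cultures are also given without culture 3 where that changed a call.

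The RefSeq promoter sequences (GRCm38.p6) held 5 of the 10 genes: Kit, Il2ra, Spn, Cd22 and Cd72. Il2ra and Cd22 are shown because their levels departed from the group means in opposite directions across cultures, as described further on. Each sequence is the 250 bases before the gene's start, read 5′ to 3′ on the gene's strand, with motif matches in capitals.
Il2ra, chr2:11642542-11642791, plus strand: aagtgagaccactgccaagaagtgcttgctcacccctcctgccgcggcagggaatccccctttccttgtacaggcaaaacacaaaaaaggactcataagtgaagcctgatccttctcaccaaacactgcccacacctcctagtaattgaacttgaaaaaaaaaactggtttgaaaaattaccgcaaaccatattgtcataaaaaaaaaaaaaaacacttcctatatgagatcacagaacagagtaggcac
Cd22, chr7:30879029-30879278, minus strand: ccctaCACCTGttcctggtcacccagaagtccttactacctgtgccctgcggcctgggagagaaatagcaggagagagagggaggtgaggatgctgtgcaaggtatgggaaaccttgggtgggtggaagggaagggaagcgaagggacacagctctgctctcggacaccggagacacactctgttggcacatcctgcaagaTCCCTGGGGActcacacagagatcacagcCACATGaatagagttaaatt
Both strands were searched for the letters TTCNNNGAA (STAT), CANNTG (E-box), TGTTTAC (FOXO), ATGCAAAT (octamer) and GAGGAA (ETS), and for the kappa B and EBF motifs by name. The Il2ra window held none of these exact letters. Each motif was searched in a fixed form only. Looser forms were not searched. The Il2ra window as printed does hold gggaatcccc, a looser kappa B form, and both windows hold the ETS core letters ggaa. How many of all promoters hold these looser letters was not counted. The Cd22 window held 2 E-box matches, 245 and 20 bases before the start, and 1 EBF match 49 bases before it, with no overlap between them. Of 32851 promoters of the same length, 66.2% held the E-box letters, 0.779% the EBF letters, 7.02% the STAT letters, 3.17% the FOXO letters, 1.6% the octamer, 1.41% the kappa B letters and 23.3% the ETS letters. These are matches of letters and were not tested as binding sites.

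CD43, which marks pro-B cells, was close to the limit of detection at the RNA level. Its gene, Spn (chromosome 7, probe ILMN_3163543), lay between 5.04 and 6.27 on all 18 arrays and was detected on 1 of them, the Rag-/- replicate 3 in IL-7. No difference between groups was tested for it.

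**Figure D1:**
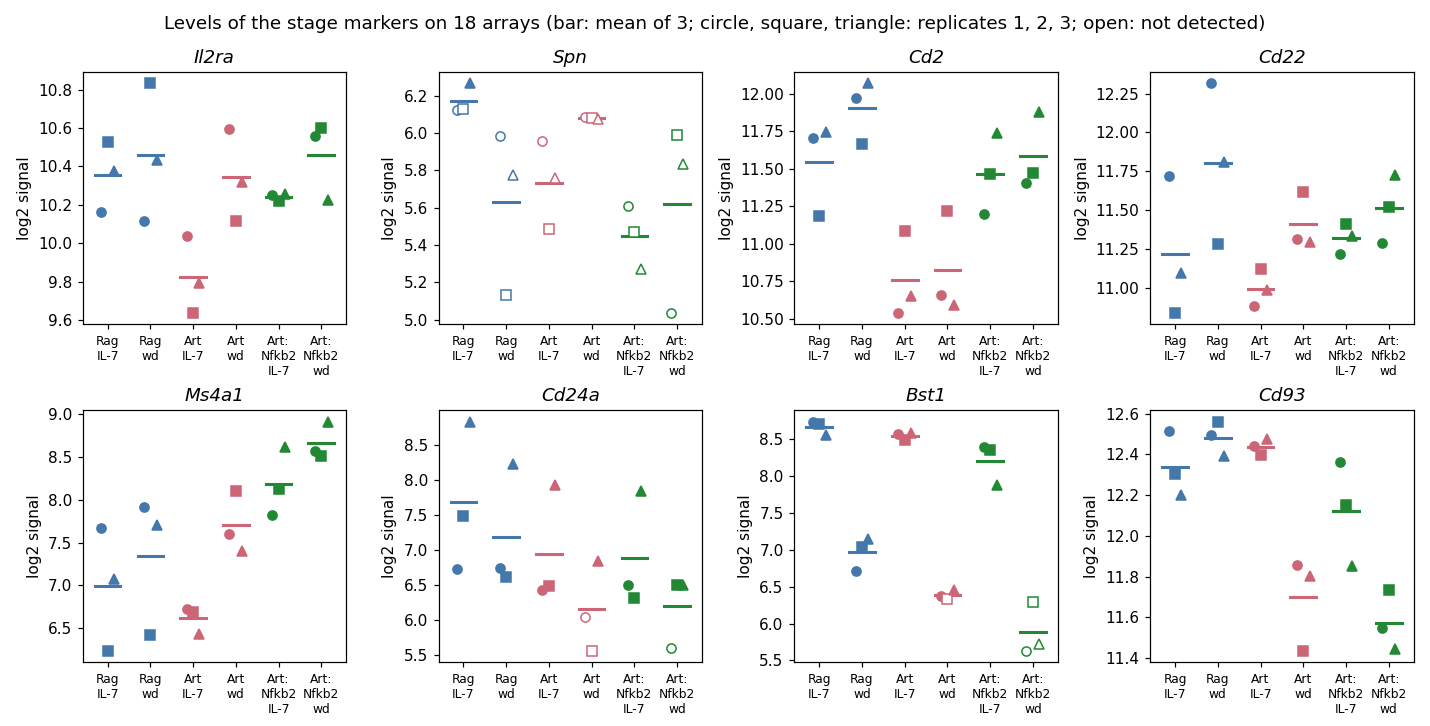
Log2 signal (y axis) of the 8 stage markers with a probe in the 6 groups (x axis; wd, 2 days without IL-7), 1 point per array. Bars are means of 3 arrays, circles, squares and triangles are replicates 1, 2 and 3, and open symbols were not detected; Cd22 is its brightest probe. Bst1 separates the days in every genotype, while Ms4a1 is highest in both Art-/-:Nfkb2-/- groups and Cd2 is lowest in both Art-/- groups.

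Bst1 (chromosome 5, probe ILMN_2648346) encodes CD157, an ADP-ribosyl cyclase found on pre-B cells, bone marrow stroma and myeloid cells. It showed the largest fall of the 7 tested genes after IL-7 withdrawal, in all 3 genotypes. Rag-/- cultures 1, 2 and 3 read 8.74, 8.72 and 8.56 in IL-7 and 6.71, 7.05 and 7.15 without it. Art-/- cultures read 8.58, 8.49 and 8.59 in IL-7 and 6.37, 6.33 and 6.45 without it. Those of the Art-/-:Nfkb2-/- genotype read 8.40, 8.35 and 7.89 in IL-7 and 5.63, 6.30 and 5.73 without it, where no array detected the probe. The lowest value in IL-7 was above the highest value after withdrawal across all 18 arrays. The log2 change was -1.70 (SE 0.17, adjusted p = 1.11e-06) in Rag-/-, -2.17 (adjusted p = 6.43e-08) in Art-/- and -2.33 (adjusted p = 2.92e-08) in Art-/-:Nfkb2-/- cultures, by limma with Benjamini-Hochberg adjustment, which was used for every adjusted p below. Since the probe was not well above background after withdrawal in the Art-/-:Nfkb2-/- group, that fall was at least 3.78-fold. These 3 calls held in all 36 other settings tried.

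After withdrawal the order of Bst1 was Rag-/- (6.97 ± 0.23, SD, n = 3), Art-/- (6.38 ± 0.06) and Art-/-:Nfkb2-/- (5.88 ± 0.36), with no overlap between neighbours. Art-/- minus Rag-/- was -0.58 on the log2 scale (SE 0.17, adjusted p = 0.0213). That call was lost when any of 4 withdrawn arrays was left out, with adjusted p = 0.0591 and 0.0891 without Rag-/- replicates 2 and 3, and 0.0575 and 0.0693 without Art-/- replicates 1 and 2. Without both arrays of a culture it was lost for 5 of the 6 cultures compared, at adjusted p up to 0.0997. Art-/-:Nfkb2-/- cultures were at least 1.60-fold lower than Rag-/- ones (measured log2 difference -1.08, adjusted p = 0.000158). The difference between Art-/-:Nfkb2-/- and Art-/- cultures did not pass (measured log2 difference -0.50, adjusted p = 0.136). No withdrawn Art-/-:Nfkb2-/- array and 2 of 3 withdrawn Art-/- arrays detected the probe, so no least fold is given. In IL-7 the means were 8.67, 8.55 and 8.21 and no genotype difference passed. The withdrawal response differed between genotypes by -0.62 at the most (Art-/-:Nfkb2-/- minus Rag-/-), which did not pass (adjusted p = 0.252) and which rests on the undetected withdrawn arrays.

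Some myeloid genes also fell on withdrawal. Of 10 myeloid markers with a probe, 8 passed the filter (Adgre1, Cd14, Elane, Fcer1g, Lyz2, Mpo, S100a8 and S100a9), and Itgam was detected on no array. Withdrawal called 3 of these 8 lower in Rag-/-, 1 in Art-/- and 4 in Art-/-:Nfkb2-/- cultures, and 0 higher, where 44.4%, 45% and 40.6% of all genes were called in either direction. The summed linear signal per array of all 10 myeloid markers with a probe ranged from 3371 to 9985 in IL-7 and 1098 to 3953 after withdrawal in Rag-/- cultures. It ranged from 3961 to 4914 and from 2238 to 2566 in Art-/- cultures, and from 5838 to 9679.9 and from 2354 to 3933 in Art-/-:Nfkb2-/- cultures. Their part in the Bst1 result was not tested. The 8 T cell markers summed to 411 to 1046 per array in IL-7 and 177 to 370 after withdrawal over all genotypes, with Thy1 and Cd28 the only ones past the filter and Cd3d, Cd3e, Cd3g, Cd4, Cd8a and Trat1 on no array, and their part was not tested. Of 7 stromal markers, Cxcl12 and Sparc passed, and Col1a1, Col1a2, Col3a1, Lum and Pdgfrb were on no array.

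Cd93 (chromosome 2, probe ILMN_1226829) encodes the AA4.1 antigen, carried by B cell precursors up to the transitional stage. It fell after withdrawal in Art-/- and Art-/-:Nfkb2-/- cultures. In Rag-/- cultures 1, 2 and 3 it read 12.51, 12.30 and 12.20 in IL-7 and 12.50, 12.56 and 12.39 without it. Art-/- cultures went from 12.44, 12.40 and 12.47 to 11.86, 11.44 and 11.80. In the Art-/-:Nfkb2-/- genotype they went from 12.36, 12.15 and 11.85 to 11.55, 11.73 and 11.44. The days overlapped in Rag-/- cultures and did not overlap in the other two genotypes, and all 6 cultures of those genotypes went down. The log2 change was -0.74 (SE 0.14, adjusted p = 0.000483) in Art-/- and -0.55 (adjusted p = 0.00501) in Art-/-:Nfkb2-/- cultures, against 0.15 (adjusted p = 0.414; 95% interval -0.15 to 0.44) in Rag-/- ones. The Art-/-:Nfkb2-/- call was lost without both arrays of culture 1 (-0.42, adjusted p = 0.0727) and with median scaling in place of quantile normalization (-0.39, adjusted p = 0.0531).

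The withdrawal response of Cd93 differed between genotypes when the difference itself was tested. Art-/- minus Rag-/-, it was -0.88 (SE 0.19, adjusted p = 0.0394), and 1.27% of all genes tested passed in that comparison. With the arrays of a culture as a block the adjusted p was 0.0138. The call held in 10 of 27 fits that left out an array or a culture, with adjusted p up to 0.150 in the other 17. It was also lost with median scaling (adjusted p = 0.117), without a detection filter (adjusted p = 0.0599) and with only the groups compared in the fit (adjusted p = 0.0615). Art-/-:Nfkb2-/- minus Rag-/-, the difference of -0.70 had an adjusted p of 0.0898, and of 0.0325 with the culture block. In the former comparison 1 of 7 members passed and in the latter 0 of 7, where 1.94% of all genes passed and 2 members, Bst1 and Cd93, had an unadjusted p below 0.05. Between the Artemis-deficient genotypes (Art-/-:Nfkb2-/- minus Art-/-) the response of Cd93 differed by 0.19 (95% interval -0.23 to 0.60), and 0 of 7 members passed or had an unadjusted p below 0.05, where 0.213% of all genes passed.

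Withdrawn Cd93 levels were 12.48 ± 0.09 (SD, n = 3) in Rag-/-, 11.70 ± 0.23 in Art-/- and 11.57 ± 0.15 in Art-/-:Nfkb2-/- cultures. Both Artemis-deficient groups lay below all Rag-/- arrays and overlapped each other. The log2 difference from Rag-/- cultures was -0.78 (SE 0.14, adjusted p = 0.000734) for Art-/- and -0.91 (adjusted p = 0.000133) for Art-/-:Nfkb2-/- ones, and both calls held in all 36 other settings. In IL-7 the means were 12.34, 12.44 and 12.12, and no difference passed. Cd93 is also carried by myeloid and endothelial cells. The part of the myeloid signal given above in the Cd93 result was not tested.

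**Figure D2:**
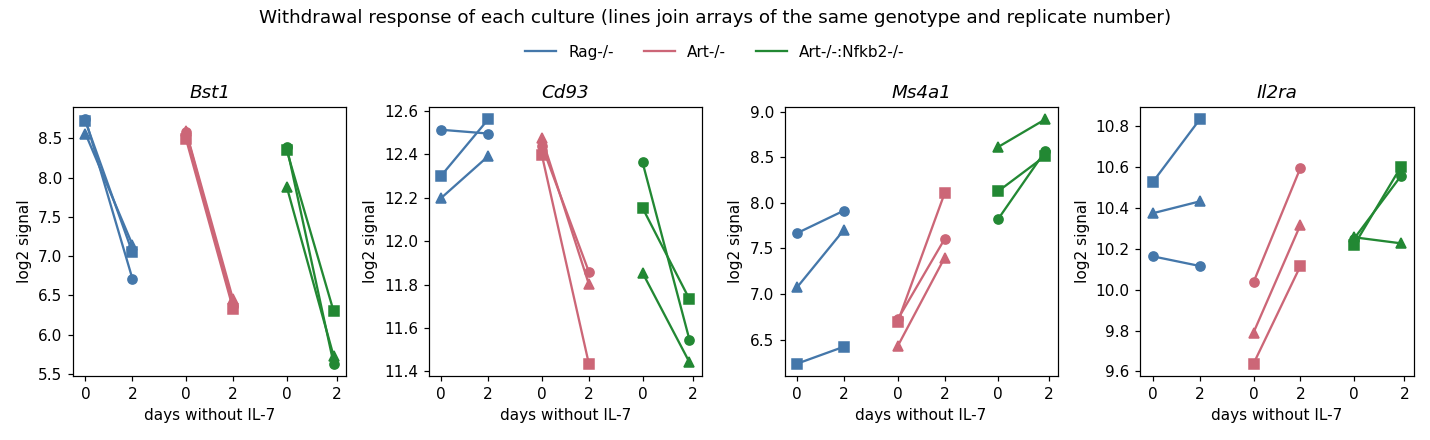
Log2 signal (y axis) of 4 genes in each culture at day 0 (in IL-7) and after 2 days without IL-7 (x axis); lines join the 2 arrays of a culture, and symbols are replicates 1, 2 and 3 (circle, square, triangle). Bst1 goes down in 9 of 9 cultures and Ms4a1 up in 9 of 9, whereas Cd93 goes down in the 6 Artemis-deficient cultures and up in 2 of 3 Rag-/- ones.

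Il2ra and Cd2 mark the pre-B stage. Il2ra (chromosome 2, probe ILMN_1233474) encodes the alpha chain of the interleukin-2 receptor, and it rose after withdrawal in Art-/- cultures. In IL-7 it read 10.16, 10.53 and 10.37 in Rag-/-, 10.04, 9.64 and 9.79 in Art-/- and 10.25, 10.22 and 10.26 in Art-/-:Nfkb2-/- cultures 1, 2 and 3. After withdrawal the values were 10.12, 10.83 and 10.43, then 10.60, 10.12 and 10.32, then 10.56, 10.60 and 10.23. The Art-/- arrays in IL-7 lay below all others, and the 3 withdrawn groups overlapped.

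Il2ra rose by 0.52 (SE 0.17, adjusted p = 0.0232) after withdrawal in Art-/- cultures, by 0.48 to 0.56 in each of the 3 cultures. The changes in Rag-/- (0.11, adjusted p = 0.651) and Art-/-:Nfkb2-/- cultures (0.22, adjusted p = 0.336) did not pass, and the difference between the responses, 0.42 for Art-/- minus Rag-/-, did not pass (adjusted p = 0.518). The Art-/- call was lost without the arrays of replicate 2 or 3 in IL-7 (adjusted p = 0.0894 and 0.061) or of replicate 1 after withdrawal (adjusted p = 0.111), and without any 1 of the 3 Art-/- cultures (adjusted p = 0.0581 to 0.0982). In IL-7, Art-/- cultures differed from Rag-/- ones by -0.53 (adjusted p = 0.0864). With median scaling this was -0.68 (adjusted p = 0.0379).

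Cd2 (chromosome 3, probe ILMN_2753697) encodes an adhesion receptor whose mouse ligand is CD48. It was lowest in the Art-/- cultures on both days. Rag-/- cultures 1, 2 and 3 read 11.70, 11.18 and 11.74 in IL-7 and 11.97, 11.67 and 12.07 without it. Art-/- cultures read 10.54, 11.08 and 10.65, then 10.66, 11.22 and 10.59. The Art-/-:Nfkb2-/- values were 11.20, 11.46 and 11.74, then 11.41, 11.47 and 11.88. On each day the Art-/- arrays overlapped neither of the other genotypes, which overlapped each other.

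Withdrawn Cd2 was 2.11-fold lower in Art-/- than in Rag-/- cultures (log2 difference -1.08, SE 0.21, adjusted p = 0.00188), and the call held in all 36 other settings. In IL-7 the same difference was -0.78 (adjusted p = 0.0391). That call was lost without Rag-/- replicate 1 or 3 in IL-7 (adjusted p = 0.0916 and 0.162), Art-/- replicate 1 or 3 in IL-7 (adjusted p = 0.139 and 0.127), and Art-/-:Nfkb2-/- replicate 2 on either day (adjusted p = 0.0524 and 0.0511). Without both arrays of a culture it was lost for 5 of 9 cultures (adjusted p = 0.0686 to 0.167). It was lost too without a detection filter (adjusted p = 0.0697) and with only the groups compared in the fit (adjusted p = 0.107). Art-/-:Nfkb2-/- cultures were above Art-/- ones by 0.76 after withdrawal (adjusted p = 0.0606) and 0.71 in IL-7 (adjusted p = 0.0779). With the arrays of a culture as a block, both differences passed, at adjusted p = 0.0289 and 0.0423. Between Art-/-:Nfkb2-/- and Rag-/- cultures the differences were -0.31 (95% interval -0.77 to 0.14) and -0.08 (95% interval -0.53 to 0.38).

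The change of Cd2 on withdrawal did not pass in any genotype without a block. Its log2 change was 0.36 in Rag-/- (adjusted p = 0.187), 0.06 in Art-/- and 0.12 in Art-/-:Nfkb2-/- cultures. With the culture block the Rag-/- change passed (adjusted p = 0.00484), and it was 0.26 to 0.48 in the 3 cultures.

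Cd22 (chromosome 7) encodes a sialic acid-binding receptor with inhibitory motifs that recruit the phosphatase SHP-1. Its brightest probe, ILMN_3159170, went up after withdrawal in 9 of 9 cultures. Rag-/- cultures 1, 2 and 3 went from 11.72, 10.84 and 11.09 to 12.32, 11.28 and 11.81. Art-/- cultures went from 10.88, 11.12 and 10.98 to 11.32, 11.61 and 11.29. The Art-/-:Nfkb2-/- arrays went from 11.22, 11.41 and 11.33 to 11.29, 11.52 and 11.73. The days overlapped in Rag-/- and Art-/-:Nfkb2-/- cultures and not in Art-/- ones, and Rag-/- culture 2 was the lowest of its group on both days.

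The Cd22 change was 0.58 (SE 0.23, adjusted p = 0.0523) in Rag-/-, 0.41 (adjusted p = 0.161) in Art-/- and 0.19 (adjusted p = 0.538) in Art-/-:Nfkb2-/- cultures. With the culture block the first (adjusted p = 0.000528) and the second (adjusted p = 0.00377) passed. On the brightest probe, genotype differences ranged from -0.39 to 0.32 and none passed with all arrays. The lowest of them, withdrawn Art-/- minus Rag-/- cultures, was -0.65 and passed without withdrawn Rag-/- replicate 2 (adjusted p = 0.049) and without both arrays of Rag-/- culture 2 (adjusted p = 0.0297). The Art-/- change passed too with only the groups compared in the fit (adjusted p = 0.0261). The withdrawal changes of the 3 probes agreed in direction in each genotype and differed in size. In a fit over all probes, ILMN_1221913 changed by 0.70, 0.57 and 0.45 in the 3 genotypes with no call. The third, ILMN_3079866, was detected on 5 of 18 arrays: 3 withdrawn Rag-/-, 1 Rag-/- in IL-7 and 1 withdrawn Art-/-:Nfkb2-/-. It passed the filter of 3 arrays only through the withdrawn Rag-/- group, where its signal was highest. Its p-values are therefore not used as support for a Cd22 change. Its measured changes, near background, were 0.89 in Rag-/-, 0.54 in Art-/- and 0.98 in Art-/-:Nfkb2-/- cultures. Withdrawn Art-/- minus Rag-/- cultures measured -0.82 on this probe, with no Art-/- array detecting it. On the mean of the probes, the Cd22 change passed in Rag-/- (0.72, adjusted p = 0.00506), Art-/- (0.51, adjusted p = 0.035) and Art-/-:Nfkb2-/- cultures (0.54, adjusted p = 0.0284). That mean gives the dim ILMN_3079866 the same weight as the others. In Art-/-:Nfkb2-/- cultures the brightest probe changed by 0.19 and ILMN_1221913 by 0.45, with no call.

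Ms4a1 (chromosome 19, probe ILMN_2690194) encodes CD20, a membrane protein of mature B cells. It was highest in Art-/-:Nfkb2-/- cultures and went up after withdrawal in 9 of 9 cultures. Rag-/- cultures 1, 2 and 3 went from 7.67, 6.24 and 7.07 to 7.91, 6.42 and 7.71. Art-/- cultures went from 6.72, 6.69 and 6.43 to 7.60, 8.11 and 7.40. Art-/-:Nfkb2-/- cultures went from 7.82, 8.13 and 8.61 to 8.57, 8.51 and 8.92. On each day all Art-/-:Nfkb2-/- arrays were above all arrays of the other genotypes, and Rag-/- culture 2 was the lowest of the 9 cultures on both days.

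In IL-7, Ms4a1 was higher in Art-/-:Nfkb2-/- than in Art-/- cultures by 1.57 (SE 0.37, adjusted p = 0.0255) and higher than in Rag-/- ones by 1.20 (adjusted p = 0.04997). After withdrawal it was higher than in Rag-/- cultures by 1.32 (adjusted p = 0.0156), while the difference from Art-/- cultures, 0.96, did not pass (adjusted p = 0.22) with all groups in the fit. With only the 2 groups compared in the fit that difference passed (adjusted p = 0.0356). Without Art-/-:Nfkb2-/- culture 3, the culture with Y-linked signal, the 3 calls were lost, at 1.36 (adjusted p = 0.132), 0.98 (adjusted p = 0.204) and 1.19 (adjusted p = 0.062). The withdrawn call against Rag-/- cultures was also lost without Rag-/- replicate 2 (0.86, adjusted p = 0.0699). Against Art-/- cultures in IL-7, the call was lost without any 1 of the 3 Art-/- arrays in IL-7 (adjusted p = 0.0605 to 0.0949) and without Art-/-:Nfkb2-/- replicate 2 or 3 in IL-7 (adjusted p = 0.0628 and 0.113), and without any 1 of the 6 cultures compared (adjusted p = 0.0592 to 0.132). Markers of other cells moved with the difference between Art-/-:Nfkb2-/- and Art-/- cultures in IL-7, where 3 of 8 myeloid markers (Adgre1, Cd14 and Elane; median of the 8, 0.67) and 1 of 3 natural killer cell markers (Nkg7) were called higher and none lower. Nkg7 was also called higher than in Rag-/- cultures in IL-7, with 0 of 8 myeloid markers called there. Their part in the Ms4a1 result was not tested. The call against Rag-/- cultures in IL-7 held in 4 of 27 fits that left out an array or a culture, those without Rag-/- culture 1, either of its arrays or withdrawn Rag-/- replicate 2.

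The rise of Ms4a1 on withdrawal passed in Art-/- cultures (1.09, SE 0.37, adjusted p = 0.0264), where it was 0.88 to 1.41 in the 3 cultures. It was lost there without replicate 3 in IL-7 (adjusted p = 0.081), withdrawn replicate 1 or 2 (adjusted p = 0.0502 and 0.106), or any 1 of the 3 cultures (adjusted p = 0.0779 to 0.145). In Rag-/- and Art-/-:Nfkb2-/- cultures the change was 0.36 (adjusted p = 0.463) and 0.48 (adjusted p = 0.331), and with the culture block both passed, at adjusted p = 0.0438 and 0.0131. The response differed between genotypes by 0.73 at the most (Art-/- minus Rag-/-), which did not pass (adjusted p = 0.615).

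Cd24a (chromosome 10, probe ILMN_1237868) encodes CD24, the heat-stable antigen of B cell precursors. It spread more within groups than any other member, with a pooled SD of 0.82 log2 units against 0.17 to 0.51 for the other 6. In IL-7 it read 6.72, 7.48 and 8.83 in Rag-/-, 6.44, 6.48 and 7.92 in Art-/- and 6.50, 6.31 and 7.84 in Art-/-:Nfkb2-/- cultures 1, 2 and 3. After withdrawal the values were 6.74, 6.61 and 8.22, then 6.05, 5.56 and 6.84, then 5.60, 6.50 and 6.50. Replicate 3 of the labels was the highest in 5 of 6 groups and level with replicate 2 to the second decimal in the other. The withdrawal changes of -0.49, -0.80 and -0.68 (SE 0.60 each) did not pass (lowest adjusted p = 0.297). With the culture block the Art-/- change passed (adjusted p = 0.0258). Withdrawn Cd24a differed from Rag-/- cultures by -1.04 in Art-/- (adjusted p = 0.269) and -0.99 in Art-/-:Nfkb2-/- cultures (adjusted p = 0.257), and no genotype difference passed on either day. With a block on the replicate number shared by all groups, both of these differences (adjusted p = 0.0188 and 0.019) and the Art-/- withdrawal change (adjusted p = 0.0343) passed. Cd24a has near-identical processed copies elsewhere in the mouse genome, and binding of their transcripts to this probe was not tested.

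Counted together, withdrawal called 1 of the 7 members in Rag-/- cultures (Bst1), 4 of 7 in Art-/- cultures (Bst1 and Cd93 lower, Il2ra and Ms4a1 higher) and 2 of 7 in Art-/-:Nfkb2-/- cultures (Bst1 and Cd93 lower). In the same comparisons 44.4%, 45% and 40.6% of all genes tested were called, so the members' counts were not high against the background. With the culture block, 4 of 7 were called in Rag-/-, 6 of 7 in Art-/- and 3 of 7 in Art-/-:Nfkb2-/- cultures. The share of all genes called with that block was not counted, so these block counts have no background to be set against. The median change of the members was 0.14, 0.06 and 0.12, and that of all genes was 0.10, 0.11 and 0.09. Between withdrawn genotypes, 3 of 7 members were called for Art-/- minus Rag-/- cultures, all lower, where 19% of all genes were called in either direction and 8.89% as lower. The members' median there was -0.58 and that of all genes -0.01. For Art-/-:Nfkb2-/- minus Rag-/- cultures, 3 of 7 were called (Ms4a1 higher, Bst1 and Cd93 lower) where 25.6% of all genes were, and these comparisons share the Rag-/- arrays. For Art-/-:Nfkb2-/- minus Art-/- cultures, 0 of 7 were called by limma where 3.99% of all genes were, and 3 members (Bst1, Cd2 and Ms4a1) had an unadjusted p below 0.05. In IL-7 the 3 comparisons called 1 member each: Cd2 for Art-/- minus Rag-/- (6.46% of all genes), and Ms4a1 for Art-/-:Nfkb2-/- minus Art-/- (4.39%) and minus Rag-/- (11.4%).

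**Figure D3:**
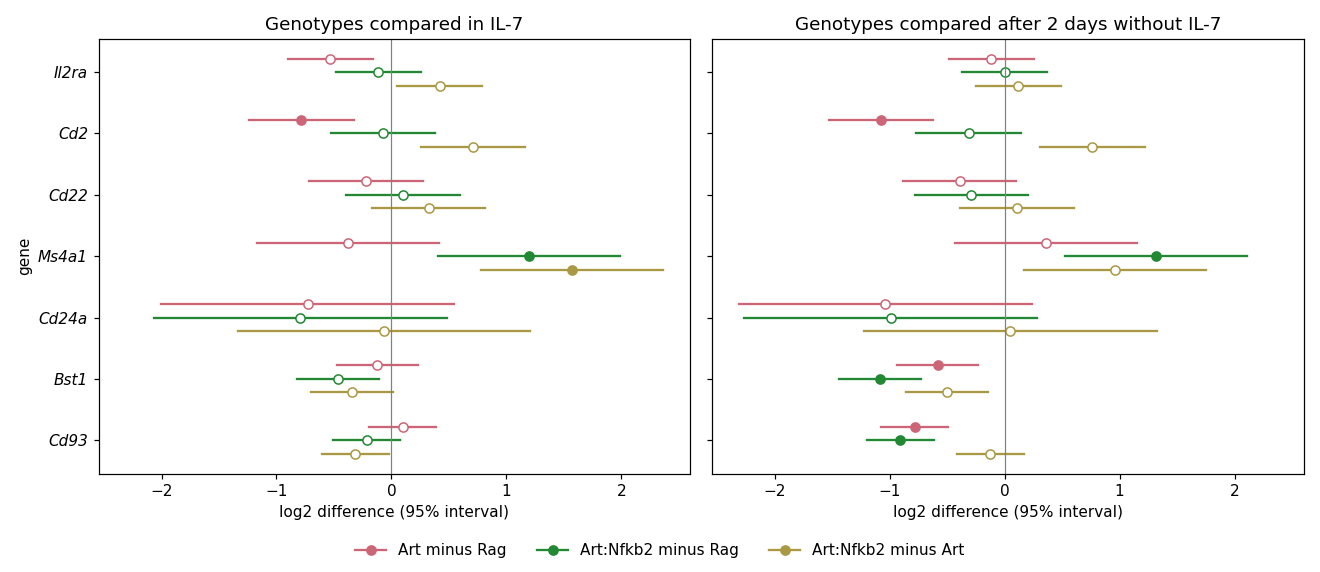
Log2 difference between genotypes (x axis) with its 95% interval for the 7 tested genes (y axis), in IL-7 (left) and after 2 days without IL-7 (right). Filled points had an adjusted p below 0.05. Filled points are Cd2 and Ms4a1 in IL-7, and Cd2, Ms4a1, Bst1 and Cd93 after withdrawal, where the Cd93 differences from Rag-/- cultures are -0.78 and -0.91.

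The cultures of a genotype departed from their group means in a repeatable way for some members. This is not particular to the members: over all probes past the filter, the 2 arrays of a culture deviated together (correlation 0.333 to 0.613). How many other genes reach the counts below was not counted. The 2 arrays of a culture lay on the same side of their group means in 9 of 9 cultures for Cd2, in 8 of 9 for Cd22, Ms4a1 and Cd24a, in 7 for Cd93, in 6 for Il2ra and in 5 for Bst1. Across the 18 arrays, Cd2 and Ms4a1 departed in the same direction on 17, Cd2 and Cd22 on 15, and Cd22 and Ms4a1 on 14. Il2ra departed in the same direction as Cd22 on 4 arrays, as Cd2 on 5 and as Ms4a1 on 6. Bst1 and Cd93 departed together on 14 arrays, and each of them departed with Cd2 on 4. The arrays are not independent points, since 2 come from each culture and deviations of a group sum to 0. Rag-/- culture 2 was the lowest of its group for Cd2, Cd22 and Ms4a1 and the highest for Il2ra on both days. These are counts with no test.

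**Figure D4:**
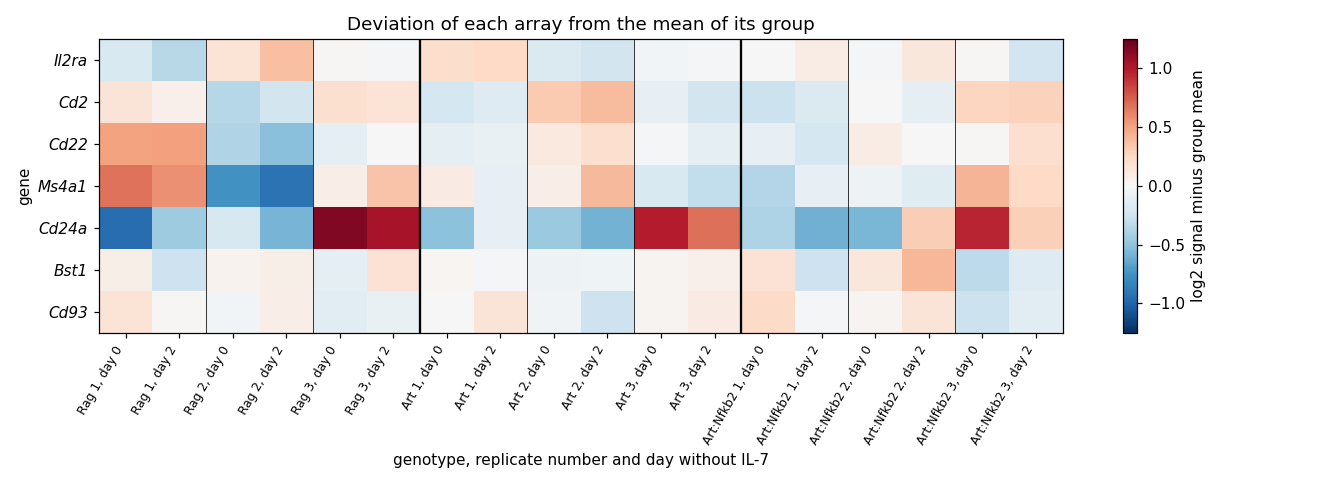
Log2 signal minus the mean of the group (colour) for the 7 tested genes (rows) on 18 arrays (columns), with the 2 arrays of a culture side by side. Rag-/- culture 2 is low for Cd2, Cd22 and Ms4a1 and high for Il2ra on both days, and replicate 3 is high for Cd24a in most groups.

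For the 4 members whose 6 group means spanned at least 1 log2 unit, the 3 genes nearest in pattern were taken by the root mean square distance between the 6 group means, each gene centred on its own mean. Bst1, with a span of 2.79, was nearest to H2ac12 (distance 0.0675), Lmnb1 (0.0679) and H2ac15 (0.0987). H2ac12 and H2ac15 encode histone H2A proteins and Lmnb1 encodes lamin B1. Ms4a1, with a span of 2.05, was nearest to Wars2 (0.156), Cd55 (0.204) and Cdkal1 (0.220). Cd2, with a span of 1.14, was nearest to Loxl1 (0.0674), Cybc1 (0.0901) and Srpr (0.130). Cd24a, with a span of 1.52, was nearest to Endou (0.102), Slc25a15 (0.108) and Phlda1 (0.113). The Cd24a distances rest on group means with large errors. Histone H2A genes are near-identical, so their probes may share transcripts, which was not tested.

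Other surface markers of the B lineage were counted beside the members. Of 24 genes listed, 21 had a probe and 15 were tested. Withdrawal called 5 higher and 2 lower in Rag-/-, 6 higher and 2 lower in Art-/- and 7 higher and 1 lower in Art-/-:Nfkb2-/- cultures, with median changes of 0.15, 0.24 and 0.31. These are 7, 8 and 8 of 15 genes, near the 44.4%, 45% and 40.6% called among all genes, whose medians were 0.10, 0.11 and 0.09. Cd52, a small glycoprotein of lymphocytes, rose by 0.77, 1.64 and 1.20, and Ly6d, a marker of B-committed progenitors, rose by 0.69, 0.62 and 0.60. Called lower were Tnfrsf13c in Rag-/- (-0.66) and Art-/- cultures (-0.52), Cd9 in Rag-/- (-0.71) and Cd1d1 in Art-/- cultures (-0.69). Groups overlapped for Cd9 and for Tnfrsf13c in Art-/- cultures. The Rag-/- call of Tnfrsf13c was lost without culture 3 (adjusted p = 0.0608). That of Cd1d1 was lost without any 1 of the 3 Art-/- cultures (adjusted p up to 0.111). Fcer2a, which encodes the low-affinity IgE receptor CD23 of mature B cells, was detected on no Rag-/- array and on no Art-/- array in IL-7. After withdrawal it was at least 2.44-fold higher in Art-/- cultures (adjusted p = 2.48e-06), and it rose by 2.22 (adjusted p = 9.66e-08) in Art-/-:Nfkb2-/- ones.

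Between withdrawn genotypes, Fcer2a lay at 7.47 ± 0.33 (SD, n = 3) in Art-/- and 8.56 ± 0.34 in Art-/-:Nfkb2-/- cultures, a log2 difference of 1.09 (adjusted p = 0.00124). It was at least 4.68-fold higher in Art-/-:Nfkb2-/- than in Rag-/- cultures. Cd1d1, which presents lipids to T cells, was lower in withdrawn Art-/-:Nfkb2-/- cultures than in Art-/- ones by -1.47 (adjusted p = 0.000601) and than in Rag-/- ones by -2.48. Il7r, the IL-7 receptor chain, differed by -1.15 (adjusted p = 0.000166) between withdrawn Art-/-:Nfkb2-/- and Rag-/- cultures, and Cd81, a tetraspanin, by 1.18 (adjusted p = 1.72e-06) between withdrawn Art-/- and Rag-/- ones. In all, 5 of the 15 genes were higher and 2 lower in withdrawn Art-/- than Rag-/- cultures, where 19% of all genes were called. For Art-/-:Nfkb2-/- against Art-/- cultures, 1 was higher and 1 lower (3.99% of all genes). For Art-/-:Nfkb2-/- against Rag-/- cultures, 7 were higher and 2 lower (25.6% of all genes). In IL-7 those counts were 3 and 0, 1 and 1, and 4 and 2, where 6.46%, 4.39% and 11.4% of all genes were called.

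Ligands, co-receptors and effectors of the members formed another list, of which 10 of 18 genes were tested. Withdrawal called 4 higher and 1 lower in Rag-/- and 4 higher and 0 lower in each of the other genotypes, which is 5, 4 and 4 of 10 and near the 44.4%, 45% and 40.6% of all genes. Ptpn6, which encodes the phosphatase SHP-1 recruited by CD22, rose by 0.49, 0.82 and 0.74 in Rag-/-, Art-/- and Art-/-:Nfkb2-/- cultures. The Rag-/- call of Ptpn6 was lost with median scaling, with only the groups compared and without Rag-/- replicate 2 in IL-7 (adjusted p up to 0.174). St6gal1, which makes the sialylated ligand of CD22, rose by 0.55, 0.42 and 0.53, and its Rag-/- and Art-/- calls were lost with median scaling (adjusted p up to 0.0848). Sema4d, the ligand of CD72, fell by 0.89 in Rag-/- cultures and was higher after withdrawal in Art-/- (1.29) and Art-/-:Nfkb2-/- (1.70) than in Rag-/- cultures. Pstpip1, which binds the tail of CD2, was higher than in Rag-/- cultures by 1.04 in Art-/- and 1.06 in Art-/-:Nfkb2-/- withdrawn cultures. Of the list, 4 were higher and 1 lower in the former comparison and 3 higher and 3 lower in the latter. Of all genes, 19% and 25.6% were called in these comparisons, in either direction.

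The last list held other receptors with inhibitory motifs like those of CD22 and CD72, of which 4 of 9 were tested. Btla, an inhibitory receptor of lymphocytes, rose after withdrawal by 1.20, 1.86 and 1.30, and Pecam1, an adhesion molecule, rose by 0.77, 0.57 and 0.39. The Art-/-:Nfkb2-/- call of Pecam1 was lost without replicate 2 in IL-7 and without culture 2 or 3 (adjusted p up to 0.129). No other gene of the 4 was called on withdrawal, where 44.4%, 45% and 40.6% of all genes were. Withdrawn Btla was higher in Art-/- than in Rag-/- cultures by 1.04, and this call was lost without Rag-/- culture 3 (adjusted p = 0.0521). In that comparison 1 of the 4 was higher and 1 lower, where 19% of all genes were called. For withdrawn Art-/-:Nfkb2-/- minus Rag-/- cultures 1 was higher and 2 lower, where 25.6% of all genes were called.

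**Figure D5:**
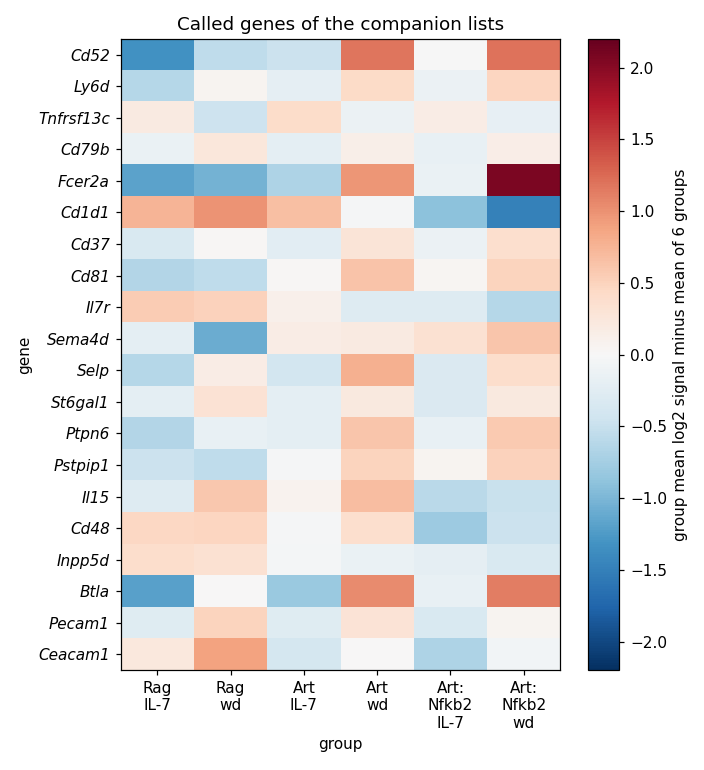
Group mean log2 signal minus the mean of the 6 groups (colour) for the genes of the 3 further lists picked by the rule on called genes (rows) in the 6 groups (columns; wd, 2 days without IL-7). Fcer2a, Cd52 and Btla are highest in the withdrawn Art-/- and Art-/-:Nfkb2-/- groups, and Cd1d1 is lowest in both Art-/-:Nfkb2-/- groups.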

How the data were processed

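Per the file headers, the authors deposited probe signals as non-normalized intensity with a detection p-value for each of 25697 probes on 18 arrays. The deposited series matrix repeats the probes with another intensity. Judged by its values that table is linear and background-subtracted, since 29.5% to 29.7% of them are below 0, its columns have medians of 19.99 to 20.29, and it ranks the probes of each array as the signals do (Spearman correlation 1). The sources used here do not say how it was made; GenomeStudio and Partek are named, per the submitters' processing notes, with no version or role. Median raw intensity was 129.3 to 163.0 per array, and precision is limited by the number of arrays. The files name neither slide nor scan, so no such batch was tested, and 0 per-sample columns went unused.

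From the deposited intensities, neqc (limma 3.58.1, R 4.3.3) made log2 values: normexp background correction using the detection p-values, an offset of 16, which shrinks differences of dim genes, and quantile normalization. The platform annotation gave 1 symbol for 23978 probes, several for 0 and none for 1719. A probe had to be detected, at p below 0.01, on 3 or more arrays. That kept 11356 probes and, with the brightest probe of a gene used, 8446 entries, of which 673 go by their probe ID. All entries entered 1 limma model of 6 group means (lmFit, eBayes). P-values were adjusted by Benjamini-Hochberg within each of 12 comparisons, and a call is an adjusted p below 0.05. A fold written as "at least" sets the bright group against the lowest signal well above background. The fit was tested on simulated data for the Art-/- withdrawal comparison. The simulated arrays were independent of each other, unlike the arrays of a culture, so the simulation cannot show how that pairing affects the calls.

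Sample titles gave the groups and the replicate numbers; for the third genotype they carry a knockout mark on Nfkb2 that the genotype field lacks. The series' design text calls the cultures independent. Arrays of a genotype with the same number deviated together (correlation 0.333 to 0.613 in 9 of 9 cultures), so the number was taken to mark a culture, and a fit with the culture as a block is given where it changed a call. Every member is named. In the 3 further lists, a rule picked genes that were called in a comparison whose groups did not overlap, at most 4 per list and comparison. The text describes only some of the genes picked. Selp, Cd37, Cd79b, Il15, Cd48, Inpp5d and Ceacam1 were also picked, and their calls enter the counts without being described. The members, lists and tests were chosen with earlier results of these data known. The alternatives tried were 9 settings and 27 fits without an array or a culture.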

Additional observations from a re-analysis of the deposited data

Results flagged for a closer look

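The withdrawal response of Cd93 differed between genotypes by a test of the difference itself: Art-/- minus Rag-/-, it was -0.88 on the log2 scale (SE 0.19, adjusted p = 0.0394 by limma with Benjamini-Hochberg adjustment). Cd93 went down in 3 of 3 Art-/- cultures, by 0.58 to 0.96, and in 1 of 3 Rag-/- cultures, where the changes were -0.02, 0.26 and 0.19. Over the 36 other settings the difference lay between -0.97 and -0.75 and the adjusted p between 0.0138 and 0.150. All Rag-/- cultures and no Art-/- culture had Y-linked signal, so sex and genotype cannot be told apart in this difference. Groups of 3 arrays are too small for a test of single outlying arrays.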

How the results depend on the processing

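Of the 17 calls of members, 8 held in all 9 alternative settings and all 27 fits without an array or a culture: Bst1 on withdrawal in the 3 genotypes, Bst1 and Cd93 in withdrawn Art-/-:Nfkb2-/- against Rag-/- cultures, Cd93 on withdrawal in Art-/- cultures, and Cd93 and Cd2 in withdrawn Art-/- against Rag-/- cultures. No call changed sign. The number of members called, 1 in the Rag-/- withdrawal, was 2 with an offset of 50, with probes detected on at least 9 arrays and with the mean of all probes. In the Art-/- withdrawal it went from 4 to 5 with the mean of all probes and with only the groups compared (Cd22 gained in both), and to 3 without a filter (Ms4a1 lost, adjusted p = 0.0513). In the Art-/-:Nfkb2-/- withdrawal it went from 2 to 1 with median scaling and to 3 with the mean of all probes (Cd22 gained). For Art-/-:Nfkb2-/- minus Art-/- cultures it went after withdrawal from 0 to 1 (Ms4a1) with only the groups compared. For Art-/- minus Rag-/- cultures in IL-7 it went from 1 to 2 with median scaling, and to 0 without a detection filter and with only the groups compared. For Art-/-:Nfkb2-/- minus Rag-/- cultures in IL-7 it went from 1 to 2 with an offset of 50, and to 0 with the series matrix values, without a filter, with the mean of probes and with only the groups compared. With median scaling it stayed at 1, with Bst1 in place of Ms4a1. For the response difference of Art-/- minus Rag-/- cultures it went from 1 to 0 with median scaling, without a filter and with only the groups compared. Ms4a1 lost its call in withdrawn Art-/-:Nfkb2-/- against Rag-/- cultures with only those groups in the fit (adjusted p = 0.0566). Fewer arrays or more genes in the fit are part of those settings, and for the others the cause was not tested.

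With the culture as a replicate block, the number of members called went from 1 to 4 in the Rag-/- withdrawal, from 4 to 6 in the Art-/- withdrawal (Cd22 and Cd24a gained), from 2 to 3 in the Art-/-:Nfkb2-/- withdrawal (Ms4a1 gained), from 0 to 1 for withdrawn Art-/-:Nfkb2-/- minus Art-/- cultures, from 1 to 2 for the same comparison in IL-7, and from 0 to 1 for the response difference of Art-/-:Nfkb2-/- minus Rag-/- cultures. The block ended no call, and it added those given beside the results. How many of all genes were called with the block was not counted, so the higher counts are not a result about the members. A block on the replicate number shared by all groups, added after seeing the data, gave 0 in place of 1 for Art-/-:Nfkb2-/- minus Rag-/- cultures in IL-7, and added Cd24a in the Art-/- withdrawal (5 in place of 4) and in both withdrawn comparisons with Rag-/- cultures (4 in place of 3 each). Same-numbered cultures of different genotypes correlated at -0.31 to 0.38. The highest, 0.378 for withdrawn Rag-/- and Art-/-:Nfkb2-/- replicate 3, lay within the 0.333 to 0.613 found for the arrays of a culture. Whether the numbers mark something shared across genotypes was not tested.

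Over the 27 fits that left out an array or a culture, the number of members called ranged from 1 to 2 (Rag-/- withdrawal), 2 to 5 (Art-/-) and 1 to 2 (Art-/-:Nfkb2-/-). Between withdrawn genotypes it ranged from 2 to 3 (Art-/- minus Rag-/-), 0 to 2 (Art-/-:Nfkb2-/- minus Art-/-) and 2 to 3 (Art-/-:Nfkb2-/- minus Rag-/-). In IL-7 the ranges, in the same order, were 0 to 2, 0 to 1 and 0 to 1. For response differences they were 0 to 1 (Art-/- minus Rag-/-), 0 to 0 (Art-/-:Nfkb2-/- minus Art-/-) and 0 to 1 (Art-/-:Nfkb2-/- minus Rag-/-). Of the 70 calls of the further lists picked by the rule on called genes, 47 held in all settings and none changed sign. Bst1 and Cd24a lay near background in some withdrawn groups, which limits the size of their differences.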
